A study of Mus musculus with 12 samples.

Results

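In livers without hepatocyte Keap1 the mRNA of 5 genes, Anxa13, Slc22a12, Serpinb1a, Slc1a1 and Osbpl3, stood above the array background, while the same mRNA stayed under an intensity of 100 in every mouse of 3 other genotypes. These 5 of 5856 measured genes (7 of 8554 probe sets with a single gene symbol) were chosen by their measured intensities, for a large rise in Keap1-HKO livers where the wild-type mean was under 100, and because the original report does not discuss them. Their rise in Keap1-HKO livers is therefore described here without a test. The pattern is not particular to them: 86 of the 5856 genes were under 100 in all 9 other livers with a Keap1-HKO mean at or above it. These 86 include the 5 genes and 10 genes of the pancreatic acinar marker list used below. They also include genes outside that list that reached 100 in Keap1-HKO mice 2 and 3 alone, Sycn and Spink1 among them. In 19 genes, 4 of the 5 among them, all 3 Keap1-HKO livers reached 100 and the 9 others did not. An intensity of 100 (6.64 on the log2 scale) was the limit above which the study kept probe sets.

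Livers of 8-week-old male mice on the C57BL/6 background came from 4 genotypes, with 3 mice of each and 1 Affymetrix Mouse 430.20 array per mouse. Keap1-HKO mice lacked Keap1 in hepatocytes: they carried the Keap1-KD allele together with AlbCre+, a transgene whose albumin promoter limits Cre recombinase to hepatocytes. Keap1-KD mice carry a floxed Keap1 allele that lowers Keap1 throughout the body, so that the other cells of a Keap1-HKO liver share this knockdown. Nrf2-null mice lack the transcription factor Nrf2, and wild-type mice were the reference; all were naïve mice without any treatment. No Cre-only or other Cre control was analysed here, and bulk liver RNA cannot tell more cells of a type apart from more mRNA per cell.

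Keap1 is the cytoplasmic adaptor that holds Nrf2 and hands it to a ubiquitin ligase for degradation. When Keap1 is lost or modified by electrophiles, Nrf2 enters the nucleus, pairs with small Maf proteins and binds antioxidant response elements, and genes of glutathione synthesis, quinone reduction and conjugate export are transcribed. The 4 genotypes thus form steps of Nrf2 activity, from none in Nrf2-null livers to the highest in Keap1-HKO livers. Of the 5 genes, Anxa13 encodes a calcium-dependent phospholipid-binding annexin known from gut and kidney epithelium, Slc22a12 the urate transporter Urat1, Serpinb1a an inhibitor of leukocyte elastase, Slc1a1 the glutamate and cysteine transporter Eaac1, and Osbpl3 an oxysterol-binding protein relative that moves lipids at membrane contact sites.

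Promoter sequence shows what lies before 3 of these genes that were raised in the same livers. RefSeq windows of 300 bases (250 before to 50 after the start, GRCm38.p6) were found for 3 of the 5 genes, and Anxa13 and Serpinb1a had no entry. They are chr19:6543021-6543320 on the minus strand for Slc22a12, chr19:28834885-28835184 on the plus strand for Slc1a1 and chr6:50456121-50456420 on the minus strand for Osbpl3. Each is written 5′ to 3′ along its gene, and capitals mark the letters GGGCGG on either strand (CCGCCC where it lies on the other strand), the GC box known as a site for Sp1-family factors.
Slc22a12: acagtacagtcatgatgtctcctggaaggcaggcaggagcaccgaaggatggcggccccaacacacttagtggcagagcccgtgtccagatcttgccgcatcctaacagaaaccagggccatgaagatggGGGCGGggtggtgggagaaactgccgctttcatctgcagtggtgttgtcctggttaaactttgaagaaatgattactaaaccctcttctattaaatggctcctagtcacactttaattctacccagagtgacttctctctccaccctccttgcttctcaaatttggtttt
Slc1a1: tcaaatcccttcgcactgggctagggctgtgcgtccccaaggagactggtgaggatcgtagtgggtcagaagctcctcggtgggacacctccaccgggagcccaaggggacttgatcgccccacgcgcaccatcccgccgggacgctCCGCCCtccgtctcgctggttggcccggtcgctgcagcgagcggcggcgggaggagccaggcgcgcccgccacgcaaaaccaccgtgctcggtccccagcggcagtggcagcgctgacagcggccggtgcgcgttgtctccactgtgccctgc
Osbpl3: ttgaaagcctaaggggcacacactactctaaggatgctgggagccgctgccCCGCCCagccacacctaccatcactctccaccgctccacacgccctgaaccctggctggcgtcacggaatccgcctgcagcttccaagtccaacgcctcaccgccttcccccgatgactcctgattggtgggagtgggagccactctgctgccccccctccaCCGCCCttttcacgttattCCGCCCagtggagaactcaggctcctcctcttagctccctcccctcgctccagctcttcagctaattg
The GC box stood 120 bases before the start of Slc22a12, 103 bases before that of Slc1a1, and 199, 37 and 18 bases before that of Osbpl3. All 3 windows held it, as did 35.7% of the 32851 mouse promoter windows of that length. The letters TATAAA were in 0 of the 3 windows and in 13.6% of all windows. Both searches were added to the planned one for the antioxidant response element. The core antioxidant response element TGACNNNGC, searched on both strands, was in 0 of the 3 windows and in 12.4% of all windows. The study searched for it much further before the start, so that 250 bases cannot show whether these genes hold it in that wider region. The windows of Slc22a12, Slc1a1 and Osbpl3 were 50%, 70.3% and 62% G or C, beside a median of 52.7% over all windows. On that annotation Slc22a12 and Slc1a1 lie on chromosome 19, Anxa13 on 15, Serpinb1a on 13 and Osbpl3 on 6.

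The arrays carried the genotypes their labels give. Keap1 mRNA averaged 10.2 ± 0.187 in Keap1-HKO livers and 52.2 ± 7.16 in Keap1-KD livers, against 228 ± 35.9 in Nrf2-null and 233 ± 15.6 in wild-type livers (un-logged intensity, mean ± SD, n = 3 each). Nfe2l2, the gene of Nrf2, read 5.10 ± 0.365 in Nrf2-null livers, against 477 ± 23.4 in wild-type livers. Hepatocyte markers (9 of 10 measured) were high on every array, with medians between 14.96 and 15.7 on the log2 scale. Among them Apob read 11.2 in Keap1-HKO mouse 1 and 11.9 in Nrf2-null mouse 1, against 14.2 to 14.8 on the other arrays. Keap1-HKO mouse 1 stood apart from the other 2 of its genotype (r = 0.798 and 0.844 across genes, against 0.982 between those 2), and so did Nrf2-null mouse 1 (r = 0.915 and 0.923). Values that rest on these mice are given for each mouse below.

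Anxa13 mRNA read 345, 276 and 234 in the 3 Keap1-HKO livers. It read 14.0, 5.11 and 5.18 in Keap1-KD livers, 5.13, 16.0 and 5.29 in Nrf2-null livers, and 5.39, 5.21 and 5.11 in wild-type livers. The lowest Keap1-HKO liver lay far above the highest of the 9 others, which was an Nrf2-null liver, and the other 3 genotypes overlapped. Compared to wild-type mice, the mean of 285 ± 55.7 in Keap1-HKO mice lay at least 2.85-fold higher, a bound set against an intensity of 100 because wild-type values lie in the background. The log2 difference between the same groups was 5.75 (SE 0.47), most of it spanning background values.

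Slc22a12 mRNA read 611, 256 and 203 in Keap1-HKO livers. In Keap1-KD livers it read 5.81, 6.57 and 6.02, in Nrf2-null livers 5.78, 6.00 and 6.64, and in wild-type livers 5.83, 6.02 and 6.38. Urat1 is known for urate reabsorption in the kidney tubule, and outside Keap1-HKO livers its mRNA did not rise above 6.64 in any mouse. The Keap1-HKO mean of 357 ± 222 was at least 3.57-fold higher than in wild-type mice (log2 difference 5.70, SE 0.32). Keap1-HKO mouse 1, the array that stood apart, gave the highest value and 3.01 times the lowest. Without that mouse the Keap1-HKO mean was 229 and the bound 2.29-fold, and without it and Nrf2-null mouse 1 the log2 difference was 5.23 (SE 0.12).

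Serpinb1a had 2 probe sets, both above 100 in each Keap1-HKO liver and below it in each of the 9 others. The brighter probe set read 2308, 511 and 2019 in Keap1-HKO livers. It read 16.5, 35.1 and 86.1 in Keap1-KD livers, 5.82, 39.7 and 6.10 in Nrf2-null livers, and 59.1, 45.0 and 16.7 in wild-type livers. This was the one of the 5 genes whose readings under 100 spread widely, with the 3 lower genotypes overlapping throughout. Its Keap1-HKO mean of 1613 ± 965 exceeded the wild-type mean by at least 16.1-fold (log2 difference 5.24, SE 0.91), and Keap1-HKO mouse 2 had less than the other 2 mice. The dimmer probe set read 744, 316 and 1038 in Keap1-HKO livers, against 14.9, 16.1 and 10.2 in wild-type livers, at least 6.99-fold higher. Its name carries the suffix that Affymetrix gives to probe sets matching several transcripts, and Serpinb1b and Serpinb1c lie beside Serpinb1a on chromosome 13, so that for this probe set the copy measured is uncertain. The Slc22a12 probe set carries the same suffix. Across the 12 arrays the readings of the 2 Serpinb1a probe sets followed each other (r = 0.953).

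Slc1a1 mRNA read 97.0, 214 and 154 in Keap1-HKO livers, while the 9 other livers read between 4.90 and 4.92, next to the lowest value in the whole table (4.89). Those 9 values are at the floor of the processed data and have no order. Keap1-HKO mouse 1, at 97.0, stayed just under the limit of 100, and Slc1a1 was the one member that did not pass it in all 3 Keap1-HKO livers. The Keap1-HKO mean of 155 ± 58.5 was at least 1.55-fold higher than in wild-type mice (log2 difference 4.91, SE 0.23). Osbpl3 mRNA read 112, 127 and 139 in Keap1-HKO livers, the narrowest spread of the 5 genes (CV 10.6%), and between 4.96 and 6.16 in the 9 others. Its mean of 126 ± 13.3 was at least 1.26-fold higher than in wild-type mice (log2 difference 4.47, SE 0.12). A second Osbpl3 probe set read 159, 145 and 191 in Keap1-HKO livers and no more than 5.003 elsewhere, at least 1.65-fold higher.

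**Figure D1:**
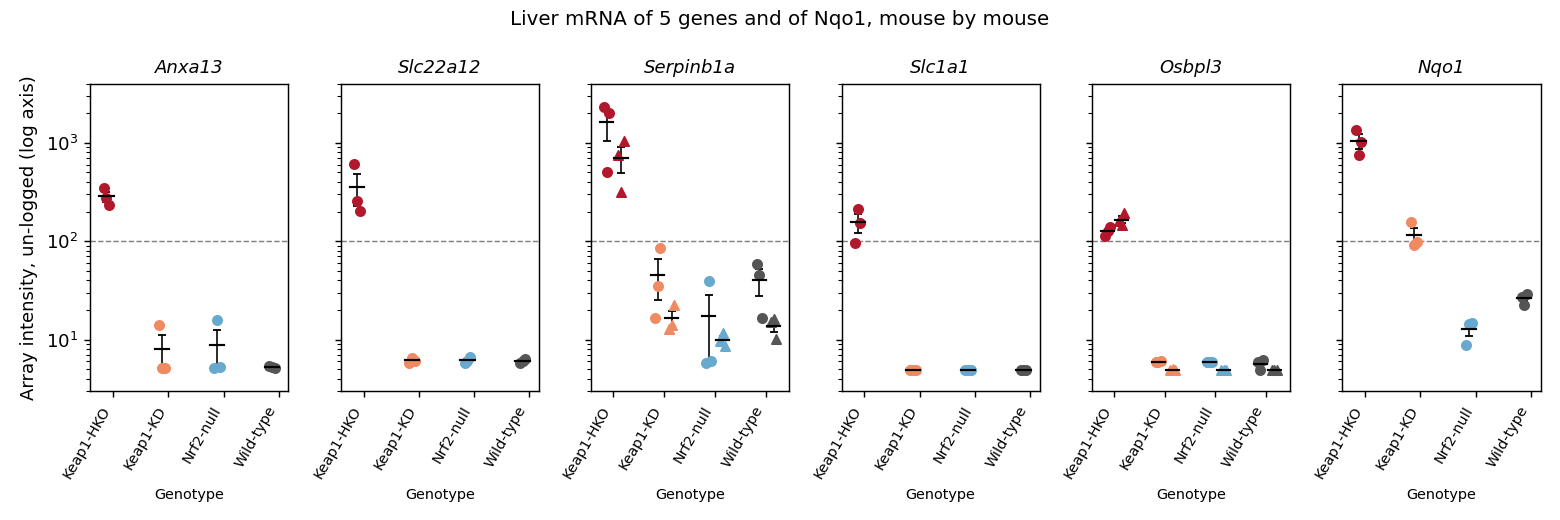
Un-logged array intensity (log axis) of the 5 genes and of the Nrf2 target Nqo1 in Keap1-HKO, Keap1-KD, Nrf2-null and wild-type livers. Circles are the probe set used in the tests and triangles a second one, 1 point per mouse, with black bars for the mean ± SEM (n = 3) and a dashed line at 100; the 5 genes pass the line in Keap1-HKO livers, with Slc1a1 of mouse 1 at 97.0, while Nqo1 climbs in steps through Keap1-KD livers to Keap1-HKO livers.

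Each of the 5 genes read higher in all 3 Keap1-HKO livers than in all 3 wild-type livers, a pattern that 12.7% of all genes showed and that the choice of the genes fixed beforehand. In the order of mean log2 levels, Keap1-HKO was on top for each gene. The order of the 3 lower genotypes was not the same for all 5 genes, and on the probe sets tested their mice overlapped. No neighbours below Keap1-HKO therefore differed beyond their spread. Both Serpinb1a probe sets ran Nrf2-null, wild-type, Keap1-KD from low to high, as Nqo1 did, and the others of the 5 genes did not. On the dimmer Serpinb1a probe set Keap1-KD and Nrf2-null mice did not overlap. Compared to wild-type mice, the Keap1-KD log2 differences were 0.46 for Anxa13 (SE 0.47), 0.01 for Slc22a12 (SE 0.32), 0.06 for Serpinb1a (SE 0.91), 0 for Slc1a1 (SE 0.23) and 0.08 for Osbpl3 (SE 0.12). The corresponding Nrf2-null differences were 0.53 for Anxa13, 0.01 for Slc22a12, −1.66 for Serpinb1a, 0.00138 for Slc1a1 and 0.07 for Osbpl3, with the same errors. These 3 comparisons share the wild-type arrays and, on the lower side, compare readings under 100 with each other. Their errors come from a spread shared over all genotypes, Keap1-HKO included.

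Keap1-KD and Nrf2-null livers did not enter the choice of the genes, and setting them against each other asks whether partial loss of Keap1 moved these genes from their level without Nrf2. The 5 genes passed the filter at 100 through Keap1-HKO livers alone and read under 100 in every Keap1-KD and Nrf2-null liver, so that little room was left for a call and nothing is read from the count. In this comparison, 0 of the 5 genes passed the test (limma with Benjamini-Hochberg adjustment over 5856 genes), where 1.37% of all genes did (58 or 0.99% higher and 22 or 0.376% lower in Keap1-KD livers). None of the 5 passed at an unadjusted p of 0.05 either, against 10.5% of all genes, nor with the study's Duncan's multiple range test. Serpinb1a had the widest difference, 1.72 on the log2 scale (SE 0.91, 95% interval −0.31 to 3.74, adjusted p = 0.583 by limma), at 16.5, 35.1 and 86.1 in Keap1-KD livers against 5.82, 39.7 and 6.10 in Nrf2-null livers. Its dimmer probe set read 12.9, 14.2 and 22.6 in Keap1-KD livers against 9.60, 11.6 and 8.61 in Nrf2-null livers, without overlap (as for 8.3% of all genes in that direction) but with a difference of 0.71 (limma adjusted p = 0.621 over 8554 probe sets). The other 4 genes differed by between −0.08 and 0.01, with adjusted p between 0.964 and 1. Their 95% intervals reached from −1.13 to 0.98 for Anxa13, −0.72 to 0.72 for Slc22a12, −0.51 to 0.51 for Slc1a1 and −0.27 to 0.29 for Osbpl3. The fit shares 1 spread over the 4 genotypes, so that these intervals also carry the spread among Keap1-HKO mice. With only the 2 groups compared, the SE was 0.60 for Anxa13, 0.12 for Slc22a12, 0.10 for Slc1a1 and 0.10 for Osbpl3. In the main fit these were 0.47, 0.32, 0.23 and 0.12. Slc1a1 and Osbpl3 lay between 4.90 and 6.03 in both groups, at or near the floor of the processed data. With array quality weights the Serpinb1a difference was 2.75 and passed (adjusted p = 0.0157), in a fit that called 1660 genes.

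Known Nrf2 targets were counted in the same comparison, and 36 of 38 exceeded 100 on average in a genotype other than Keap1-HKO, unlike the 5 genes, so that the 2 counts are not set against each other. Of 38 measured genes in a list of 48 Nrf2 targets, 17 rose and 0 fell in Keap1-KD livers compared to Nrf2-null livers, with a median log2 difference of 0.92 beside −0.03 over all genes. Without Keap1-HKO mouse 1 and Nrf2-null mouse 1 the count was 20 of 38, while 145 of all 5856 genes rose, against 58 in the main fit. The study had already described many of these targets from the same arrays, so that their direction is not independent evidence. By lowest p they were led by the aldehyde oxidase gene Aox1 (log2 difference 3.47, limma adjusted p = 4.48e-05), the glutathione S-transferase genes Gstm3 (5.59, 6.93e-05) and Gstm1 (3.64, 0.000208), and the conjugate exporter gene Abcc3 (3.95, 6.93e-05). Nqo1, the quinone reductase commonly used as the yardstick of Nrf2 activity, read 1366, 756 and 1019.9 in Keap1-HKO livers. It read 156, 90.9 and 97.6 in Keap1-KD livers, against 8.91, 14.5 and 14.7 in Nrf2-null and 27.3, 22.7 and 29.2 in wild-type livers. Nqo1 thus rose in Keap1-KD mice compared to Nrf2-null mice (3.17, SE 0.29, adjusted p = 0.000276) and compared to wild-type mice (2.09, SE 0.29, adjusted p = 0.0373, limma). In Keap1-HKO livers compared to wild-type livers, 26 of the 38 targets rose and 0 fell (over all genes, 2.1% rose and 1.84% fell).

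**Figure D2:**
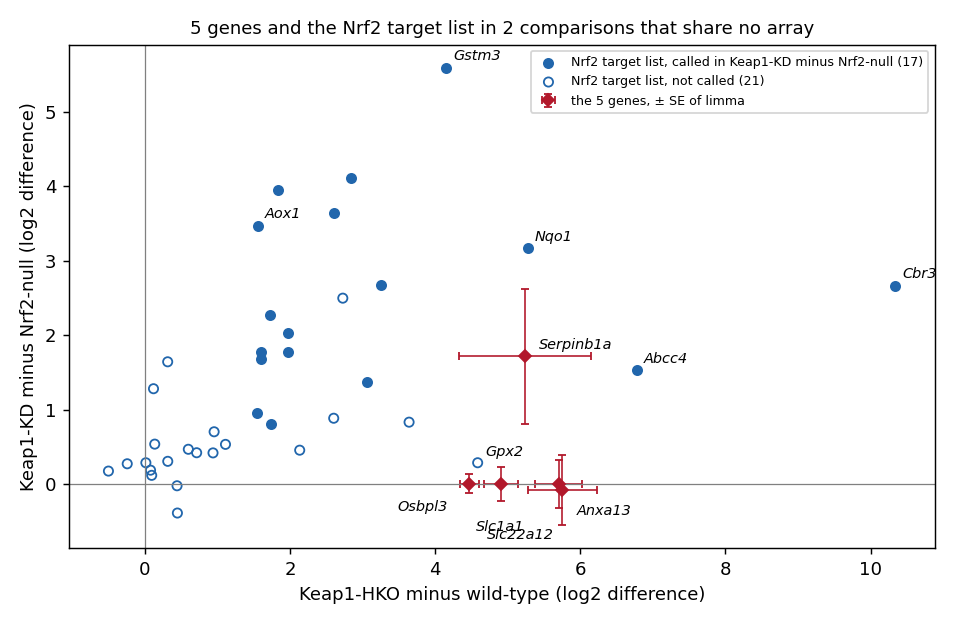
Log2 differences of the 5 genes (diamonds ± SE) and of 38 Nrf2 target genes (circles, filled where called in Keap1-KD minus Nrf2-null) in 2 comparisons that share no array, Keap1-HKO minus wild-type across and Keap1-KD minus Nrf2-null upward. Anxa13, Slc22a12, Slc1a1 and Osbpl3 lie between 4.47 and 5.75 across and between −0.08 and 0.01 upward, Serpinb1a lies at 5.24 across and 1.72 upward, and Gpx2 (0.29), Abcc4 (1.54), Cbr3 (2.67) and Nqo1 (3.17) are named for orientation. Readings of the 5 genes, of Cbr3 and of Gpx2 were under 100 in both groups of the upward axis.

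The width of the step was described by the gap between the lowest Keap1-HKO array and the highest of the 9 others. By this gap the 5 genes ranked 3, 4, 5, 7 and 9 among 5856, at 4.94 for Slc22a12, 4.30 for Slc1a1, 4.19 for Osbpl3, 3.87 for Anxa13 and 2.57 for Serpinb1a on the log2 scale. The gap uses the values that chose the genes and spans readings under 100, which set its size. Slc1a1 ranked 4 with a lowest Keap1-HKO reading of 97.0 because its 9 others lay at the floor. With all readings under 100 raised to 100, an alternative chosen after seeing the data, the gap was 2.35 for Serpinb1a, 1.23 for Anxa13, 1.02 for Slc22a12, 0.17 for Osbpl3 and 0 for Slc1a1. Cbr3, a carbonyl reductase gene (7.28), and Abcc4, which encodes the exporter Mrp4 (4.98), had the widest gaps. Abcc12, an ABC transporter gene (3.91), and Gpx2, the glutathione peroxidase gene best known from the gut (3.63), ranked among the 5. Cbr3 and Abcc4 also rose in Keap1-KD livers compared to Nrf2-null livers (2.67 with adjusted p = 0.000368, and 1.54 with adjusted p = 0.00116, limma). For Cbr3 all these readings were under 100 (76.6, 54.0 and 51.3 in Keap1-KD livers against 10.2, 11.1 and 7.35 in Nrf2-null livers), as were those of the 5 genes. Gpx2 and Abcc12 differed by 0.29 and 0.14 there (limma adjusted p = 0.691 and 0.831), also with all readings under 100. Gpx2 read 490, 512 and 366 in Keap1-HKO livers, against 18.7, 18.7 and 19.1 in wild-type livers.

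**Figure D3:**
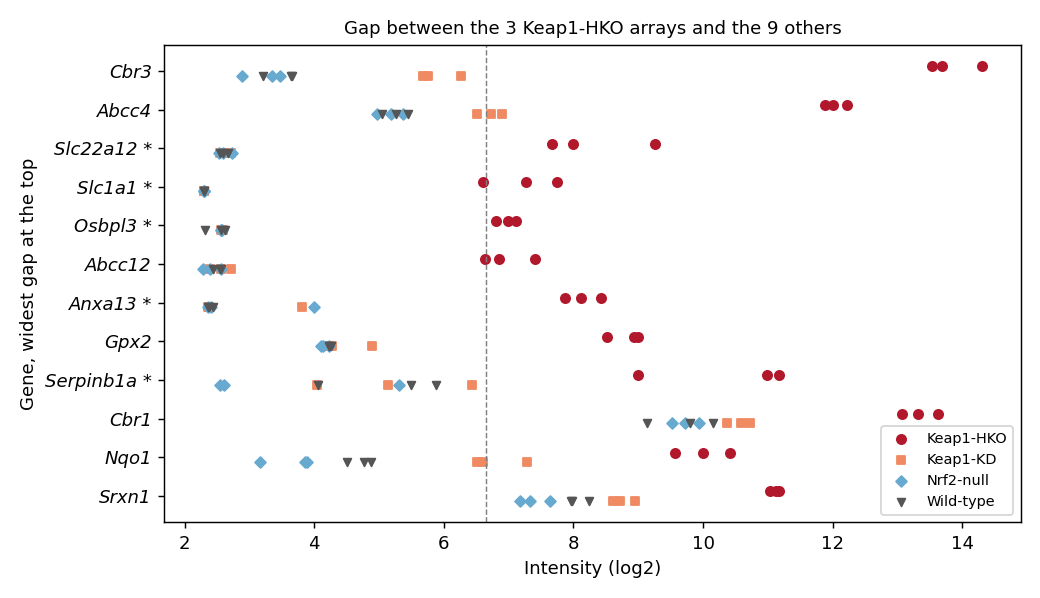
Log2 intensity of the 12 genes with the widest gap between the lowest Keap1-HKO array and the highest of the 9 others, with 1 symbol per mouse, stars on the 5 genes and a dashed line at an intensity of 100; coinciding points hide each other. The Keap1-KD mice of Cbr3, Abcc4, Cbr1, Nqo1 and Srxn1 stand apart from the Nrf2-null and wild-type mice, while those of Slc22a12, Slc1a1, Osbpl3 and Abcc12 overlap with them.

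Likeness of pattern over the 12 arrays followed the same genes. Gpx2 and Abcc12 were among the 3 genes with the highest Pearson r for each of Anxa13 (0.979 and 0.972), Slc22a12 (0.987 and 0.985), Slc1a1 (0.988 and 0.995) and Osbpl3 (0.991 and 0.994). Osbpl3 was the other of the 3 for Anxa13 (0.971), Slc22a12 (0.985) and Slc1a1 (0.995), and Slc1a1 for Osbpl3. Serpinb1a differed, with glutathione synthetase gene Gss (0.954), the peroxisomal nucleotide carrier gene Slc25a17 (0.938) and the ribosomal protein gene Rps7 (0.936) on top. Each r mainly reflects 3 high and 9 low arrays, and these genes were read on the same arrays.

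Among 400 genes with a wild-type mean under 100, 26 rose in Keap1-HKO livers by at least as much as Osbpl3, and 0 of the genes with a higher wild-type mean did. Ranked by that rise, the 5 genes took places 15, 16, 21, 22 and 26, and their nearest neighbours were largely genes of pancreatic acinar cells. Just above Anxa13 stood Reg1 (6.06), below Slc22a12 stood Pnliprp1 (5.60), above Serpinb1a stood Cela3b (5.24), below Slc1a1 stood Sycn (4.63), and on either side of Osbpl3 stood Spink1 (4.57) and Abcc12 (4.45). The neighbours other than Abcc12 did not have the pattern of the 5 genes mouse by mouse. Reg1, a secreted protein of the exocrine pancreas, read 4.89, 8023 and 875 in Keap1-HKO mice 1, 2 and 3, and Pnliprp1, a pancreatic lipase relative, read 5.13, 5938 and 505.

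Pancreatic acinar markers (11 of 13 measured) had median log2 values of 2.38, 14.3 and 11.2 in Keap1-HKO mice 1, 2 and 3, and of 2.31 to 2.38 in the 9 other mice. Their summed intensity ran between 495 and 198444 in Keap1-HKO livers, against 684 to 1310.3 in wild-type livers. Skeletal muscle markers (7 of 11 measured) had medians of 3.14, 11.1 and 9.82 in Keap1-HKO mice, and 10.4 in wild-type mouse 2. In Keap1-HKO mouse 1, where the acinar median was as low as in other genotypes, Anxa13 read 345, Slc22a12 read 611, Serpinb1a read 2308, Slc1a1 read 97.0 and Osbpl3 read 112. In wild-type mouse 2, where muscle markers were high, these 5 genes read 5.21, 6.02, 45.0, 4.90 and 4.96. With Keap1-HKO mice 2 and 3 left out, which leaves 1 Keap1-HKO array, the log2 difference from wild-type was 6.04 for Anxa13, 6.65 for Slc22a12, 6.03 for Serpinb1a, 4.30 for Slc1a1 and 4.31 for Osbpl3.

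Kidney, cholangiocyte and lymphocyte markers had no usable probe set among 14, 8 and 9 listed, and Fabp2 was the 1 of 10 gut markers measured. The neutrophil list was represented by Lcn2, 1 of 9, which read 258, 737 and 313 in Keap1-HKO livers against 44.4, 88.6 and 57.5 in wild-type livers and is also made by hepatocytes. Beyond these values, the part of other tissues and cell types in the levels of the 5 genes was not tested.

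**Figure D4:**
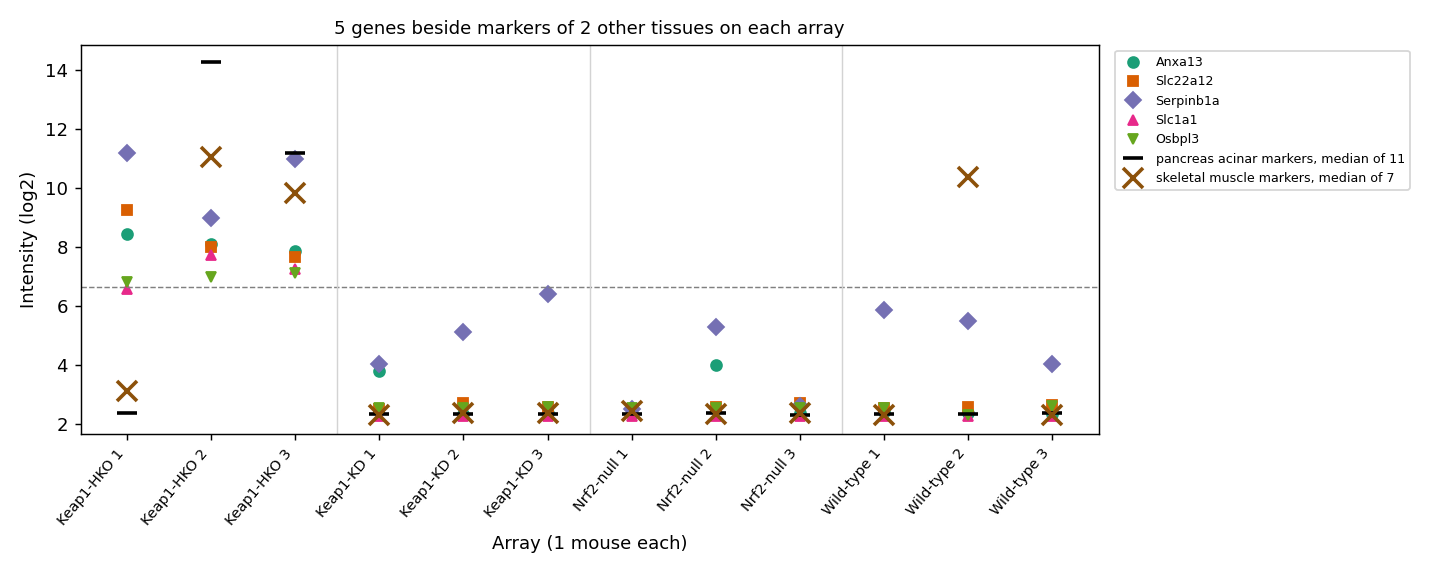
Log2 intensity of the 5 genes on each of the 12 arrays, beside the median of 11 pancreatic acinar markers (bars) and of 7 skeletal muscle markers (crosses), with a dashed line at an intensity of 100. The 5 genes lie above the other genotypes in all 3 Keap1-HKO mice, with Slc1a1 of mouse 1 at 97.0, just under the line. Mouse 1, the array that stood apart from its group, had an acinar median of 2.38, as low as in other genotypes.

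Relatives of the 5 genes were counted list by list, beside 2.1% higher and 1.84% lower over all genes in Keap1-HKO compared to wild-type livers, and 0.99% and 0.376% in Keap1-KD compared to Nrf2-null livers. The lists are short and share Abcc4, Gclc, Gclm, Gss and Ppat with the Nrf2 targets. Among 6 measured annexins of 11, 1 rose and 0 fell in each of the 2 tested comparisons. It was Anxa7, a membrane-fusion annexin, at 1654, 1542 and 1462 in Keap1-HKO livers against 872, 891 and 917 in wild-type livers (log2 difference 0.80, limma adjusted p = 0.0058). In Keap1-KD livers compared to Nrf2-null livers Anxa7 was higher by 0.59 (adjusted p = 0.0478). Of 5 measured Slc22 transporters, 0 rose and 1 fell in Keap1-HKO livers compared to wild-type livers, and 0 passed in Keap1-KD livers compared to Nrf2-null livers. The one that fell was Slc22a7, the organic anion transporter Oat2, which read 290, 397 and 205 in Keap1-HKO livers against 704, 960.4 and 1805 in wild-type livers (−1.90, adjusted p = 0.0332).

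Genes of urate handling were set beside Slc22a12. Of 16 measured, 2 rose and 1 fell in Keap1-HKO livers compared to wild-type livers, and 2 rose and 0 fell in Keap1-KD livers compared to Nrf2-null livers. Those that rose in both were the urate exporters Abcc4 and Abcg2, and the one that fell was again Slc22a7. Abcc4 read 4789, 3771 and 4097 in Keap1-HKO livers, against 38.5, 33.0 and 43.7 in wild-type livers. Abcg2 read 3400.5, 3999 and 3771 in Keap1-HKO livers, against 2476, 2334 and 2038 in wild-type livers (0.71, limma adjusted p = 0.00972). In Keap1-KD livers Abcg2 was 0.77 higher than in Nrf2-null livers (adjusted p = 0.0102).

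Of 10 measured genes of the Slc1 family and of glutathione precursor supply, 2 rose and 1 fell in Keap1-HKO livers compared to wild-type livers, and 1 rose and 1 fell in Keap1-KD livers compared to Nrf2-null livers. Gclc, the catalytic subunit of the rate-limiting enzyme of glutathione synthesis, rose by 1.54 (adjusted p = 0.000776) and by 0.95 (adjusted p = 0.021), and Gss rose by 0.94 in Keap1-HKO livers (adjusted p = 0.0074, limma). Slc3a1, a subunit of a cystine and dibasic amino acid transporter, fell in both. It read 72.7, 32.9 and 33.7 in Keap1-HKO livers against 213, 286 and 271 in wild-type livers (−2.56, adjusted p = 0.00145), and 173, 125 and 105 in Keap1-KD livers against 622, 856 and 769 in Nrf2-null livers (−2.50, adjusted p = 0.00232, limma). Slc1a1 itself was at the floor in both Keap1-KD and Nrf2-null livers.

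Of 2 measured clade B serpins, 1 rose in Keap1-HKO livers compared to wild-type livers and 0 passed in Keap1-KD livers compared to Nrf2-null livers. Serpinb9, a granzyme B inhibitor encoded 3 genes away from Serpinb1a, read 124, 103 and 131 in Keap1-HKO livers against 47.3, 65.4 and 49.2 in wild-type livers (1.15, limma adjusted p = 0.0316). Of 8 measured oxysterol-binding proteins and their membrane anchors, 0 passed in either comparison, and at an unadjusted p of 0.05 2 were lower in Keap1-HKO livers. Vapa, the brightest of them and an anchor at membrane contact sites, differed by −0.28 in Keap1-HKO livers (adjusted p = 0.445, limma).

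In Keap1-HKO minus wild-type the median log2 difference was 0.49 for the annexins, 0.37 for the Slc22 transporters, 0.07 for the urate genes, 0.68 for the 2 serpins, −0.11 for the Slc1 and glutathione precursor genes and −0.23 for the oxysterol-binding list, beside −0.01 over all genes. In Keap1-KD minus Nrf2-null these medians were 0.19, 0.26, 0.24, 0.13, −0.12 and 0.04 in that order, beside −0.03 over all genes. With Keap1-HKO mouse 1 and Nrf2-null mouse 1 left out, more of all 5856 genes were called. In Keap1-HKO compared to wild-type livers 276 rose and 395 fell, against 123 and 108 in the main fit. In Keap1-KD compared to Nrf2-null livers 145 rose and 107 fell, against 58 and 22. Among Slc22 transporters 1 then rose and 2 fell in Keap1-HKO livers compared to wild-type livers, and 1 rose in Keap1-KD livers compared to Nrf2-null livers. In the list with Slc1a1, 2 then rose and 2 fell in Keap1-HKO livers, and 2 rose and 1 fell in Keap1-KD livers. Of the urate genes 3 rose and 1 fell in Keap1-HKO livers, of the oxysterol-binding list 0 rose and 1 fell there, and the other counts of these lists did not change.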

How the data were processed

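Total RNA of 12 livers was hybridized to Affymetrix Mouse 430.20 arrays, 3 mice for each of 4 genotypes. The authors imported the scanner files with the affy package in R, applied GCRMA, and deposited log2 values, keeping a probe set where 1 group or more exceeded an intensity of 100. Background correction by GCRMA sets unexpressed probe sets to a common low value. Readings under 100 lay under the study's limit, and folds from them were bounded. Not all such readings lay at that low value: Keap1 averaged 52.2 in Keap1-KD livers and 10.2 in Keap1-HKO livers. No depth applies to arrays, and precision rests on 3 mice per genotype. The p-values set each difference against a spread between mice that was pooled over the 4 genotypes and moderated across all genes.

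Of 9622 probe sets, 8554 had a single symbol, 371 several and 697 none. Each of 5856 genes was read from the probe set with the largest log2 average across all 12 arrays, which for Osbpl3 is not the brighter one in Keap1-HKO livers. Genes were tested in 1 fit over 4 genotypes with the lmFit and eBayes functions of limma (version 3.58.1, R version 4.3.3; 8 residual and 2.19 prior degrees of freedom), adjusted by Benjamini-Hochberg and called under 0.05. Un-logged intensities are 2 to the power of the log2 values, and ± is the SD where no SE is named. The members, lists and tests were chosen with earlier results of these data known. Genes were named by a rule: the 5 genes, Keap1, Nfe2l2 and Nqo1; for each of the 5, the 3 genes most alike by Pearson r; neighbours in rank; up to 3 called relatives per list, or the brightest where none was called; and 4 Nrf2 targets with the lowest p. Genes named in the ranking by gap and among cell type markers were added after their values were seen. The labels give each genotype replicate numbers 1 to 3, and the sources used here do not say what they mark. Deviations of same-numbered Keap1-KD and Nrf2-null arrays correlated at 0.29, 0.205 and 0.149, and those of different numbers at −0.292 to 0.208. For Keap1-HKO and wild-type arrays the same-numbered values were 0.333, 0.394 and −0.157. These values do not establish a pairing, and the number was used as a block in an alternative fit only. Alternatives were other normalizations, floors, filters, probe set choices, variance models, weights and left-out arrays, and the study's Duncan test.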

Additional observations from a re-analysis of the deposited data

How the results depend on the processing

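The choice of the genes fixed the sign of their Keap1-HKO minus wild-type difference beforehand, so that only its size is described here. The Keap1-HKO minus wild-type log2 differences of the 5 genes stayed above 0 in every alternative tried. A floor at an intensity of 100 removes the span under 100 and set the Serpinb1a difference of Nrf2-null minus wild-type to 0. With it the Keap1-HKO minus wild-type differences shrank to 1.49 for Anxa13, 1.66 for Slc22a12, 3.74 for Serpinb1a, 0.57 for Slc1a1 and 0.33 for Osbpl3. With a second quantile normalization they were 5.24 for Slc22a12, 4.57 for Slc1a1 and 3.99 for Osbpl3, and the cause was not tested. Other probe set choices gave Osbpl3 4.76 (mean of both) and 5.05 (the more variable one). Array quality weights gave Slc1a1 5.37, and weights estimated gene by gene, chosen after seeing the data because the first estimate stopped before it converged, gave Slc22a12 5.13. Without Keap1-HKO mouse 1 and Nrf2-null mouse 1, Slc22a12 was 5.23 and Slc1a1 5.21, and without Keap1-HKO mice 2 and 3 they were 6.65 and 4.30, with Osbpl3 at 4.31. Leaving out 1 mouse at a time gave 5.60 to 5.88 for Anxa13, 5.23 to 6.02 for Slc22a12, 4.69 to 5.93 for Serpinb1a, 4.64 to 5.21 for Slc1a1 and 4.38 to 4.55 for Osbpl3. Compared to wild-type mice, the ranges were −0.03 to 0.70 (Anxa13), −0.04 to 0.05 (Slc22a12), −0.56 to 0.63 (Serpinb1a), −0.00252 to 0.00252 (Slc1a1) and −0.02 to 0.14 (Osbpl3) in Keap1-KD mice. In Nrf2-null mice they were −0.00771 to 0.81, −0.05 to 0.05, −2.57 to −1.19, −0.00114 to 0.00263 and −0.03 to 0.13 for the genes in the same order.

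The low readings of the 5 genes left little room for a call in Keap1-KD minus Nrf2-null, so that nothing is read from their count. A floor at an intensity of 100 set each of these differences to 0. In this comparison 0 of the 5 genes was called in all but 1 alternative. The exception was array quality weights, with Serpinb1a at 2.75 and 1 gene called (Keap1-KD minus wild-type 1.33); the adjusted p of Serpinb1a ranged between 0.0157 and 1. Differences near 0 changed sign: Slc22a12 was −0.25 with a second quantile normalization, −0.0236 with median centring, −0.0921 and −0.0567 with the 2 kinds of weights, −0.0421 without both mouse 1 arrays and −0.00203 on un-logged values, Slc1a1 was 0.0114 with a second quantile normalization, and Osbpl3 was −0.10 with it and −0.0154 with median centring. Leaving out 1 mouse gave −0.56 to 0.46 for Anxa13, −0.0510 to 0.0576 for Slc22a12, 1.10 to 2.63 for Serpinb1a, −0.00263 to 0.00114 for Slc1a1 and 3.32e-05 to 0.01 for Osbpl3, with 0 to 0 genes called. The count over all genes, 80, became 1660 and 651 with the 2 kinds of weights, 252 without both mouse 1 arrays, 40 with only the 2 groups, 53 with a second quantile normalization, and 463 and 438 with Duncan's test on log2 and un-logged values. It ran between 43 and 155 with 1 mouse left out, 155 without Keap1-HKO mouse 1, 50 without Keap1-KD mouse 1 and 43 without Keap1-KD mouse 2. With the replicate number as a block, 110 genes were called, Serpinb1a stayed at 1.72, and the block changed no call on the 5 genes. A filter at an intensity of 200 removed Slc1a1 and Osbpl3. Signal over background limits these comparisons, since all readings of the 5 genes outside Keap1-HKO livers were under 100.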
